A study of Rattus norvegicus with 20 samples.

Results

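The soleus is a slow postural muscle of the calf that is supplied by the sciatic nerve. These data compare its microRNAs (miRNAs) 3 months after release of a chronically entrapped sciatic nerve with those of muscle whose nerve was still entrapped. Every soleus array that the labels give to decompression after entrapment, or to entrapment alone, was taken, which gave 6 of the 20 arrays of the series, 3 in each group. No sham array enters the comparison, so a difference below is a difference between the 2 injured groups and says nothing about uninjured muscle. The remaining arrays hold dorsal root ganglia, denervated soleus and sham samples.

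All 6 muscles came from adult male Sprague-Dawley rats whose right sciatic nerve had been enclosed in a silastic tube that did not constrict it when placed. The muscle of the entrapment rats was collected 6 months after the tube was placed. In the decompression rats the tube stayed for 6 months and was then taken out, and the muscle was collected 3 months later. The decompression rats had therefore undergone a further operation and stood at 9 months after the tube, against 6 months in the entrapment rats. Release of the nerve, the added operation and the added 3 months of age cannot be told apart in this design. The tube lay around the nerve in the thigh, and the muscle below it was not operated on. Per the methods, the muscles of 3 rats were put on arrays in each group.

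A miRNA is a short RNA that base-pairs with messenger RNAs mainly through its seed, bases 2 to 8 from the 5′ end, and lowers their translation or stability. Skeletal muscle is rich in a small set of muscle-specific miRNAs, the myomiRs, of which miR-1 and the miR-133 pair mark mature fibres, miR-206 is known for its role in regenerating and reinnervated muscle, and miR-499 is encoded within a slow myosin gene. Muscle that loses or regains its nerve supply is known to change in fibre size, fibre type and connective tissue, and miRNAs of each of these compartments are on the array.

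The mature sequences of the myomiRs are shown because the question of the comparison is whether they move when the nerve is released, and because several of them are close to identical. Capitals mark the seed.
miR-1: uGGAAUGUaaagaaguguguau
miR-206: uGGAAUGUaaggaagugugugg
miR-133a: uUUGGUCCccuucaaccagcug
miR-133b: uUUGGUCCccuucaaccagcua
miR-499: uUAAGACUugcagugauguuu
miR-1 and miR-206 share a seed and differ at 3 positions, and miR-133a and miR-133b share a seed and differ at 1 position. Near-identical miRNAs can share signal on a hybridisation array, so the 2 members of such a pair are not separate evidence. miR-206 (chr9:30590747-30590768, plus strand) and miR-133b (chr9:30594629-30594650, plus strand) start 3.88 kb apart on the genome.

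The miRNAs that were lower after decompression with no overlap between the groups are shown next, with their neighbours in the genome. Capitals again mark the seed.
miR-300-3p: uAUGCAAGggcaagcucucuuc
miR-127: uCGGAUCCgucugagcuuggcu
miR-199a-3p: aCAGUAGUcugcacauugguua
miR-199a-5p: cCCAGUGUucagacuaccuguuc
miR-214: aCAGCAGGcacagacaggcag
No seed is shared among these 5. miR-127 (chr6:134328510-134328531, plus strand) and miR-300-3p (chr6:134559968-134559989, plus strand) belong to the large imprinted Dlk1-Dio3 miRNA locus. miR-199a-5p (chr13:77116255-77116277, plus strand) and miR-199a-3p (chr13:77116294-77116315, plus strand) are the 2 arms of the same hairpin, and miR-214 starts 5.46 kb from miR-199a-5p on chr13. Sequences and positions are from RefSeq on build GRCr8. miR-136, the other miRNA of that kind, is named only.

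Signals are given as scaled signals, the scanner's background-subtracted total signal of a miRNA after the 75th percentile of each array was set to 1000. Of the 350 rat miRNAs on the array, 168 were detected on none of the 6 arrays and 32 on 1 or 2 arrays. The remaining 150 were detected on at least 3 arrays and were tested, and 121 of these were detected on all 6. The scanner detected 170, 159 and 136 miRNAs on the entrapment arrays and 147, 139 and 138 on the decompression arrays (155 ± 17.3 against 141 ± 4.93, SD, n = 3 each). The exact permutation test of these counts gave a two-sided p of 0.4 (the smallest that 3 against 3 arrays can give is 0.1). Before scaling, the 75th percentile was 1638, 1374 and 669 on the entrapment arrays and 979, 906 and 953 on the decompression arrays. The 2 brightest arrays, entrapment 1 and 2, were also those with the most miRNAs detected.

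Of the 6 arrays, 2 stood apart from the rest. Decompression 2 had a median correlation of 0.951 with the other 5 arrays, the lowest of the 6, and was the array farthest from the others in 65 of the 150 tested miRNAs. Entrapment 1 was the farthest in 47. The error that the scanner software gave for the dark corner spots, which carry no probe, was 8.26 on decompression 2 and 4.39 to 5.15 on the other 5 arrays. Values without either array are given below for the miRNAs and lists that the comparison turns on.

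The overall comparison gave a short answer. At an adjusted p under 0.05 (limma, Benjamini-Hochberg over the 150 tested), 0 miRNAs were higher (0%) and 0 were lower (0%) after decompression than in entrapment, and the smallest adjusted p was 0.971. At an unadjusted p under 0.05, 0 were higher and 3 were lower (2.00% of those tested). These 3 were miR-136, miR-300-3p and miR-199a-3p. On the study's scale of 2-fold, with the added condition that the groups do not overlap, 0 miRNAs were higher and 2 were lower (1.33%), namely miR-136 and miR-300-3p. This count fell to 0 without entrapment 1, and was 4 without decompression 1, 5 without decompression 3 and 7 without entrapment 3. Fewer arrays make the no-overlap condition easier to meet, so these counts are not on the same footing as the count from all arrays. Without regard to size, all 3 decompression arrays lay above all 3 entrapment arrays for 3 miRNAs (2.00%) and below them for 3 (2.00%).

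The differences were small throughout the tested miRNAs. The median log2 difference, decompression minus entrapment, was 0.07, with 89 miRNAs above 0 and 61 below. The median size of a difference was 0.20 on the log2 scale, with quartiles of 0.08 and 0.37 and a largest size of 1.43. It was under 0.5 for 124 miRNAs (82.7%) and 1 or more for 5. In 114 of the 150 the difference was smaller than the spread between replicates, the pooled within-group SD, which had a median of 0.39 log2.

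The 95% intervals show how large a change the 6 arrays can bound. For 83 miRNAs (55.3%) the whole interval lay between a 2-fold decrease and a 2-fold increase, and for 11 it lay within 1.5-fold. Precision followed signal. The interval lay within 2-fold for 49 of the 70 miRNAs with a mean scaled signal of 100 or more and for 34 of the 80 below 100. For the other miRNAs a 2-fold change in at least 1 direction is within the error, and their p-values do not show that the groups are alike. With both arrays that stood apart left out, 128 intervals lay within 2-fold, from 2 arrays a group. Those arrays were chosen after seeing that they lay farthest from the rest. Leaving them out narrows the intervals by that choice, so 128 is not a better bound than 83. With single arrays left out, the count fell to 48 without decompression 1, 49 without entrapment 2 and 51 without entrapment 3.

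**Figure D1:**
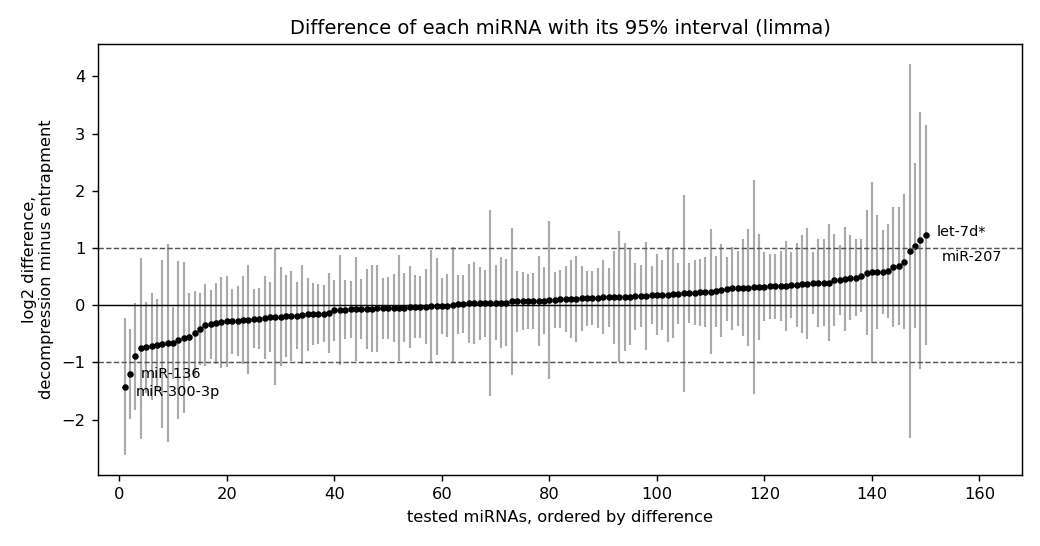
Each point is the log2 difference (vertical axis, decompression minus entrapment) of 1 of the 150 tested miRNAs, ordered by difference along the horizontal axis, with its 95% limma interval as a grey line, and the dashed lines mark a 2-fold change. Most points lie close to 0, 3 intervals at the left end lie wholly below 0, and the points at the right end have the widest intervals.

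The array-to-array comparison gave the same picture without any test. Over the 150 miRNAs, the correlation of log2 signals was 0.970 to 0.991 between entrapment arrays, 0.936 to 0.986 between decompression arrays and 0.937 to 0.995 between arrays of different groups. By correlation the closest pair of all 15 was a cross-group pair, entrapment 3 and decompression 1 (0.995). By median absolute log2 difference it was entrapment 3 and decompression 3, also across groups, at 0.164. Within groups that measure ran from 0.292 to 0.457 among entrapment arrays and from 0.183 to 0.555 among decompression arrays. Without the 2 arrays that stood apart it was 0.292 between the remaining entrapment arrays, 0.183 between the remaining decompression arrays and 0.164 to 0.344 across groups. Both within-group ranges overlapped the range across groups. The scanner's own error was smaller than this spread, with a median of 0.11 log2 against a median within-group SD of 0.33 among the 121 miRNAs detected on all arrays, and the SD was the larger in 111 of them.

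miR-136, from the imprinted locus on chr6, had the smallest p of all tested miRNAs. Its scaled signals were 75.1, 39.2 and 36.5 in entrapment and 17.9, 19.6 and 25.3 after decompression. The groups did not overlap, and entrapment 1 was the highest array. The log2 difference was -1.20 (95% interval -1.98 to -0.42, adjusted p = 0.971 by limma), or 2.30-fold lower. Without entrapment 1 it was -0.87, without decompression 2 it was -1.16, and without both it was -0.83. The unadjusted limma p stayed under 0.05 in 24 of the 24 settings in which it was computed, and the adjusted p passed in none. These settings, some with arrays left out, reuse the same arrays and are not separate evidence. The scanner's error on its signal was 13.3% (median over arrays), while the entrapment arrays alone ran from 36.5 to 75.1.

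miR-300-3p, from the same locus, had the largest difference in size of all 150. Its signals were 61.4, 19.1 and 15.6 in entrapment and 10.1, 8.10 and 11.6 after decompression, and it was detected on 3 and on 2 arrays. All decompression values lay below all entrapment values, but entrapment 1 alone was more than 3 times either of the other entrapment arrays. The log2 difference was -1.43 (95% interval -2.62 to -0.23, adjusted p = 0.971 by limma), and without entrapment 1 it was -0.82. Its signal is dim, and the scanner's error was 26.7%.

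The tested miRNAs of the locus, miR-136 and miR-300-3p among them, did not all move in 1 direction. By position, 45 miRNAs of the array map to the 52 hairpins of the locus (chr6:134298084-134579838 in RefSeq GRCr8), a set made after the values of miR-136 and miR-300-3p had been seen. Of these, 27 were detected on none of the 6 arrays and 10 were tested, of which 5 were higher and 5 lower after decompression, with a median log2 difference of -0.10 against 0.07 over all tested miRNAs. The median was -0.70 without decompression 2 and -0.34 without both arrays that stood apart. miR-127 had signals of 28.2, 12.1 and 13.3 in entrapment and 8.73, 6.55 and 12.4 after decompression, which overlapped by a little, and its log2 difference was -0.89 (95% interval -1.83 to 0.04), or -0.51 without entrapment 1 and -0.29 without both arrays that stood apart. miR-434 had 37.8, 20.1 and 19.5 against 11.2, 24.3 and 12.3, a difference of -0.72 (95% interval -1.66 to 0.22), with decompression 2 among the entrapment values. It was -0.41 without entrapment 1 and -1.07 without decompression 2. Entrapment 1 held the highest signal for 4 of the 10, including all those named so far. miR-494, the member with the tightest replicates, had 204, 197 and 174 against 205, 223 and 197, a difference of 0.12 (95% interval -0.36 to 0.61). The other 5, miR-337, miR-299, miR-329, miR-487b and miR-409-3p, had differences between -0.20 and 0.24. Without decompression 2 these were, in the same order, -0.80, -0.72, -0.30, 0.25 and 0.20. Of the 26 locus miRNAs listed by name, 8 were tested, with 5 higher, 3 lower and a median of 0.02 (-0.48 without decompression 2 and -0.29 without both arrays). That list does not hold miR-136 or miR-300-3p.

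miR-199a-3p, an miRNA of fibroblasts and other mesenchymal cells, was the third miRNA below the unadjusted threshold. Its signals were 650, 510 and 365 in entrapment and 295, 336 and 313 after decompression. The groups did not overlap, and the entrapment arrays were spread widely while the decompression arrays lay close together. The log2 difference was -0.66 (95% interval -1.29 to -0.03, adjusted p = 0.971 by limma), or -0.46 without entrapment 1 and -0.71 without decompression 2. The unadjusted limma p was under 0.05 in 13 of 24 settings. Its partner arm miR-199a-5p had 216, 161 and 104 against 82.4, 128 and 80.0, a difference of -0.70 (95% interval -1.50 to 0.10). miR-214, the neighbour of the pair on chr13, had 192, 143 and 91.6 against 83.9, 117 and 80.6, a difference of -0.56 (95% interval -1.33 to 0.21). For both, the entrapment arrays kept the order of miR-199a-3p, decompression 2 lay above entrapment 3, and the groups overlapped. Without entrapment 1 the difference was -0.45 for miR-199a-5p and -0.31 for miR-214. Without decompression 2 it was -0.92 and -0.73, and without both arrays -0.67 and -0.48. These 3 miRNAs come from 1 stretch of the genome and were measured in the same RNA, so they are not independent of each other.

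The fibroblast and matrix list, which holds these 3, was mixed. Of its 9 tested miRNAs (11 on the array), 5 were higher and 4 lower, with a median of 0.12 against 0.07 over all tested miRNAs, and the median turned to -0.08 without decompression 2. miR-199a-3p was the only member whose groups did not overlap, against 2.00% of all tested miRNAs in each direction. miR-21, an miRNA known for its rise in fibrosis and injury, had 2911, 1615 and 2329 in entrapment against 1637, 1429 and 2251, a difference of -0.35 (95% interval -1.07 to 0.36). It was -0.16 without entrapment 1 and -0.01 without both arrays that stood apart. The miR-29 family, known to target collagens and other matrix genes, was higher in mean. miR-29c had 3534, 3383 and 4478 against 5048, 3883 and 5410, a difference of 0.33 (95% interval -0.24 to 0.90). Its other arm, miR-29c*, had 119, 148 and 223 against 252, 183 and 288, a difference of 0.59 (95% interval -0.15 to 1.32). Both overlapped through decompression 2. miR-29a and miR-29b, which share the seed of miR-29c, differed by 0.18 (95% interval -0.33 to 0.69) and 0.12 (95% interval -0.63 to 0.87), the latter -0.08 without decompression 2.

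Outside these lists, miR-320 had dim signals of 15.1, 14.1 and 9.16 in entrapment and 9.74, 5.02 and 8.58 after decompression. The groups overlapped through entrapment 3, and the log2 difference was -0.74 (95% interval -1.53 to 0.05), or -0.45 without decompression 2 and -0.31 without both arrays that stood apart.

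On the higher side, the 3 miRNAs whose groups did not overlap were miR-101a, miR-378* and miR-425, and all 3 changes were under 1.5-fold. miR-101a had 771, 696 and 763 in entrapment and 790, 862 and 779 after decompression, a log2 difference of 0.12 (95% interval -0.35 to 0.60), with a gap between the groups smaller than the spread within either. miR-378*, an arm of the hairpin encoded within the metabolic regulator gene Ppargc1b, had 215, 277 and 313 against 340, 348 and 353, a difference of 0.39 (95% interval -0.15 to 0.92). Its decompression arrays were nearly equal, and without entrapment 1 the difference was 0.23. The other arm, miR-378, had 1146, 1632 and 2372 against 2450, 1140 and 3022, a difference of 0.31 (95% interval -0.71 to 1.33, 0.73 without decompression 2), and its groups overlapped fully because decompression 2 was the lowest of the 6 arrays. miR-425 had dim signals of 9.09, 9.84 and 8.11 against 11.96, 17.7 and 10, a difference of 0.51 (95% interval -0.13 to 1.15), or 0.28 without decompression 2.

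**Figure D2:**
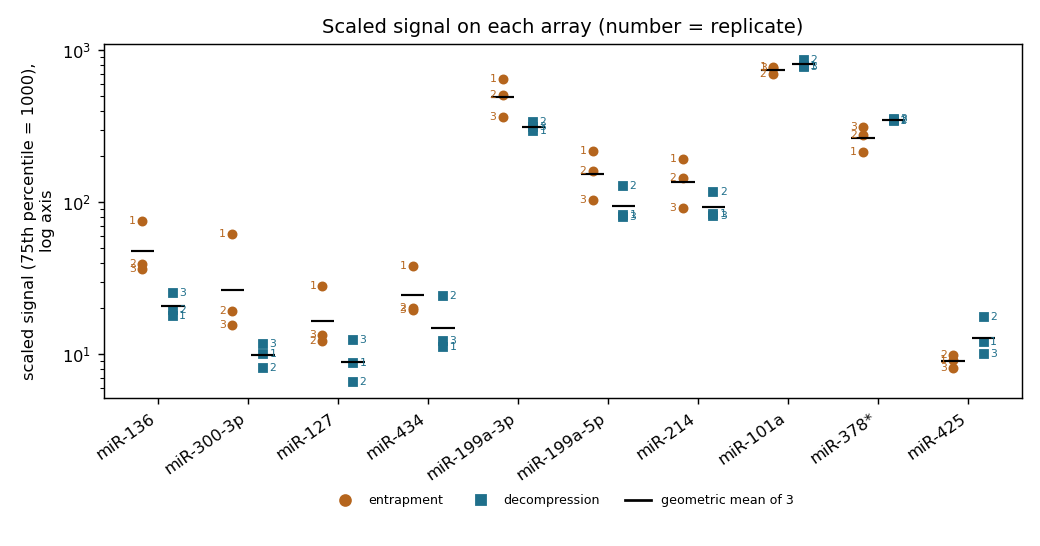
Scaled signal (vertical axis, log scale) of the miRNAs lower after decompression, their genomic neighbours and the 3 higher ones on each array, with circles for entrapment, squares for decompression, the replicate number beside each point and a bar at the geometric mean of 3 arrays. miR-136, miR-300-3p and miR-199a-3p have all squares below all circles, and circle 1 is the top point in each of the first 7 miRNAs.

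The myomiRs, the miRNAs for which the question was posed, did not pass any threshold. Of the 6 on the array, miR-208, the cardiac member, was detected on no array, and the 5 tested were all higher in mean after decompression (median 0.34 against 0.07 over all tested miRNAs), with 0 past the adjusted and 0 past the unadjusted threshold and 0 without overlap. Over all tested miRNAs the shares were 0% at the adjusted threshold, 0% higher and 2.00% lower at the unadjusted threshold, and 2.00% without overlap in each direction, so 0 of 5 is no departure from the background. Their median fell to 0.09 without entrapment 1 and to 0.00 without both arrays that stood apart, but was 0.39 without decompression 2. None of the 5 intervals lay within 2-fold. Those of miR-1, miR-133a and miR-133b reached past a 2-fold increase but not past a 2-fold decrease. Those of miR-206 and miR-499 reached past 2-fold in both directions.

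miR-133b had 27779, 43868 and 61779 in entrapment and 57762, 48538 and 60814 after decompression. Entrapment 1 was the lowest array and entrapment 3 the highest, and the decompression arrays lay between them. The log2 difference was 0.39 (95% interval -0.37 to 1.15), or 0.09 without entrapment 1 and 0.49 without decompression 2. miR-133a showed the same order of arrays in entrapment, with 1180, 1885 and 2453 against 2477, 1705 and 2632. Its difference was 0.34 (95% interval -0.44 to 1.13), or 0.05 without entrapment 1 and 0.54 without decompression 2. miR-1 had 20264, 38011 and 53622 against 41243, 28494 and 49592, a difference of 0.17 (95% interval -0.78 to 1.11). It turned to -0.22 without entrapment 1 and was 0.39 without decompression 2. The summed scaled signal of the muscle list was 57776 on entrapment 1 and 89724 to 121820 on the other 5 arrays, so the entrapment 1 muscle gave the least myomiR signal relative to its other miRNAs. Before scaling, entrapment 1 was the brightest array (75th percentile 1638, against 669 to 1374 on the others), so its signals were scaled down the most. The part of scaling in its low myomiR signal was not tested. Whether a muscle held fewer fibres or less of these RNAs per fibre cannot be told apart in whole muscle, and this holds for every miRNA described here.

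miR-206, the myomiR tied to regeneration and reinnervation, did not follow its neighbour miR-133b. Its signals were 8549, 5930 and 3950 in entrapment and 5005, 22383 and 2775 after decompression. Decompression 2 was the highest and decompression 3 the lowest of the 6 arrays, and all entrapment values lay between them. The log2 difference was 0.21 (95% interval -1.51 to 1.93), and -0.65 without decompression 2. miR-499, the slow-fibre myomiR, was spread wider still, with dim signals of 5.24, 29.6 and 16.2 in entrapment and 23.98, 214 and 3.53 after decompression. Its difference was 0.95 (95% interval -2.33 to 4.23), -0.56 without decompression 2 and -1.25 without both arrays that stood apart, so no direction can be given for it.

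For 2 of the myomiRs the authors' processed table departs from the scanner signal. For most miRNAs each array's processed values are the scanner signal divided by a single constant, but on arrays entrapment 2, entrapment 3, decompression 1 and decompression 3 the processed value of miR-1 is off that constant by more than 1%, the tolerance used. With the processed table scaled in the same way, miR-1 was 20222, 19343 and 29477 in entrapment and 23255, 27664 and 11221 after decompression, a difference of -0.23 in place of 0.17. Processed miR-499 was 52.3, 291 and 160 against 239, 2074 and 35.2, higher than the scanner signal on every array by a similar factor, with a difference of 0.95 in both. The constant itself was 1222 on decompression 2 and 39.9 to 93.2 on the other arrays. Scaling each array to its own 75th percentile takes out such a constant. What was done to the values of miR-1 and miR-499, and why the constant of decompression 2 was larger, was not given in the sources used here.

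**Figure D3:**
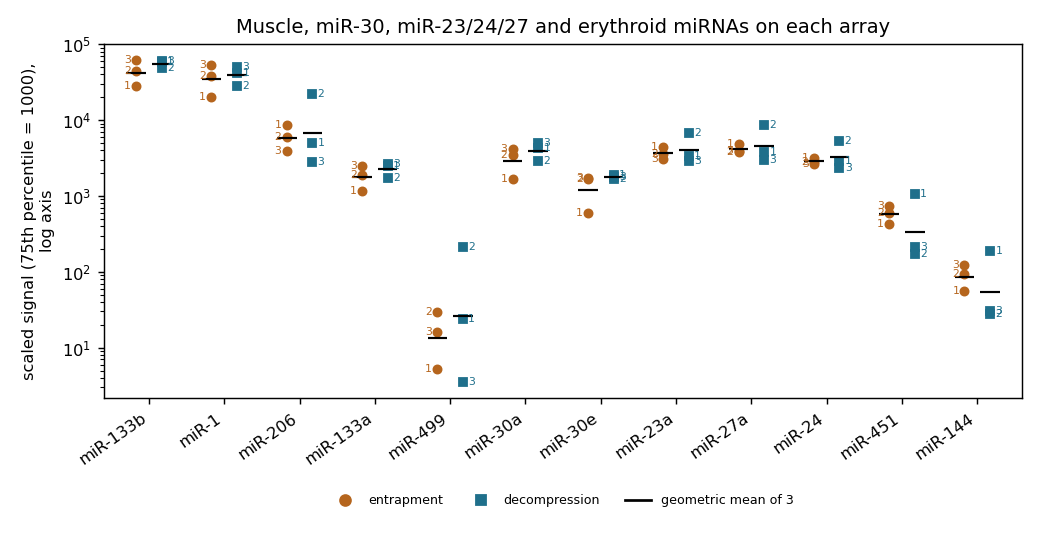
Scaled signal (vertical axis, log scale) of the 5 tested myomiRs and of miR-30, miR-23/24/27 and erythroid miRNAs on each array, with circles for entrapment, squares for decompression, the replicate number beside each point and a bar at the geometric mean of 3 arrays. Circle 1 is the lowest point for miR-133b, miR-1, miR-133a, miR-30a and miR-30e, square 2 is the highest for miR-206, miR-499, miR-23a, miR-27a and miR-24, and the groups overlap for every miRNA shown.

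The 3 miRNAs that were at least 2-fold higher in mean (2.00%) all rested on decompression 2. let-7d*, the passenger arm of a let-7 hairpin, had 4.67, 5.64 and 7.99 in entrapment and 6.93, 59.5 and 6.52 after decompression, a log2 difference of 1.23 (95% interval -0.70 to 3.15) that fell to 0.18 without decompression 2. miR-207 had 2.29, 6.44 and 14.2 against 13.6, 53.1 and 3.94, a difference of 1.13 (95% interval -1.12 to 3.39), or 0.18 without that array. The value of 2.29 lies under the floor of 2.95 that was set before taking logs. miR-328 had 19.5, 19.6 and 27.4 against 28.9, 130 and 24.4, a difference of 1.04 (95% interval -0.40 to 2.48), or 0.28 without it. In each of these the other decompression arrays lay within or beside the entrapment range. let-7b*, with 9.84, 10.9 and 23.2 against 16.4, 45.4 and 16.4, behaved likewise (0.76, and 0.27 without decompression 2).

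The miR-23/24/27 clusters, whose members are widely expressed and known from muscle atrophy signalling and from vessels, followed the same array. All 5 tested members were higher in mean (median 0.20), and 4 of the 5 intervals lay within 2-fold. miR-23a had 4402, 3586 and 3098 in entrapment and 3373, 6832 and 2900 after decompression, a difference of 0.15 (95% interval -0.70 to 1.00), or -0.23 without decompression 2. miR-27a had 4803, 3770 and 3947 against 3827, 8581 and 2967, a difference of 0.15 (95% interval -0.80 to 1.09), which turned to -0.30 without decompression 2. miR-24 had 3176, 2828 and 2664 against 2887, 5316 and 2364, a difference of 0.20 (95% interval -0.58 to 0.98), or -0.14 without it. Decompression 2 was the highest array for each of the 3, and without it the median of the list was -0.14.

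The miR-30 family, abundant in striated muscle, followed entrapment 1 instead. All 5 members were higher in mean after decompression (median 0.32), none past a threshold, and 0 of the 5 intervals lay within 2-fold. miR-30a had 1690, 3452 and 4133 in entrapment and 4333, 2920 and 4933 after decompression, a difference of 0.46 (95% interval -0.46 to 1.37). miR-30e had 587, 1653 and 1702 against 1874, 1679 and 1751, a difference of 0.58 (95% interval -0.42 to 1.57). Entrapment 1 was the lowest array for both, by more than 2-fold for miR-30e, and without it the difference of each was 0.07 and the median of the list was 0.07. That median was 0.48 without decompression 2 and 0.20 without both arrays that stood apart. The low miR-30 and the low myomiR signal fell on the same array, and their relation was not tested.

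For the let-7 family, known for its role in cell differentiation, a 2-fold change was bounded in every member. All 8 let-7 and miR-98 miRNAs were tested, 2 higher and 6 lower, with a median of -0.07, and all 8 intervals lay within 2-fold. let-7a had 3173, 2351 and 2662 in entrapment and 2443, 2223 and 2671 after decompression, a difference of -0.15 (95% interval -0.68 to 0.37), or -0.04 without entrapment 1. Other broadly expressed miRNAs were bounded as well. miR-26a had 4417, 4518 and 5110 against 5066, 4538 and 5411, a difference of 0.10 (95% interval -0.39 to 0.59). miR-22 had 10185, 9660 and 15025 against 11650, 12492 and 12057, a difference of 0.08 (95% interval -0.50 to 0.66). In each of these the groups overlapped and a 2-fold change in either direction lay outside the interval.

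Growth-related families gave no calls either. The family of miR-15b, miR-16, miR-195, miR-322 and miR-497, known to restrain the cell cycle, had 1 member higher and 4 lower of 5 (median -0.14, 4 intervals within 2-fold). The miR-17-92 cluster and its paralogs, known to promote proliferation, had 2 higher and 6 lower of the 8 tested (median -0.18, 5 intervals within 2-fold), and the median was 0.12 without decompression 2. The group of miR-10, miR-99, miR-100 and miR-125 miRNAs had 2 higher and 5 lower of 7 (median -0.16, 6 intervals within 2-fold). miR-125b-5p of that group had 1624, 1102 and 1000 in entrapment and 1011, 881 and 1013 after decompression, a difference of -0.33 (95% interval -0.93 to 0.27), or -0.12 without entrapment 1. The miR-181 family had 1 higher and 2 lower of 3 (median -0.07, 2 intervals within 2-fold).

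miRNAs of other cell types in the muscle were read from short lists. Erythroid miRNAs, which report residual blood, varied widely between animals. miR-451 had 426, 596 and 738 in entrapment and 1076, 172 and 211 after decompression, a difference of -0.75 (95% interval -2.33 to 0.83), or -0.96 without entrapment 1 and -0.26 without decompression 2. miR-144 from the same locus had 55.4, 92.2 and 123 against 187, 27.7 and 30.8, a difference of -0.66 (95% interval -2.39 to 1.07), or -0.98 and -0.18. The summed signal of the 2 was 481 to 861 on the entrapment arrays and 200 to 1263 on the decompression arrays, with decompression 1 the highest and decompression 2 the lowest. The part of blood in any other difference was not tested.

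The vessel and leukocyte lists held no called miRNA. miR-126, the endothelial miRNA, had 1036, 1653 and 1701 in entrapment and 1409, 1687 and 1317 after decompression, a difference of 0.03 (95% interval -0.60 to 0.67). It was -0.30 without both arrays that stood apart. The smooth muscle miRNA miR-143 had 1385, 1886 and 1897 against 2178, 2482 and 1811, a difference of 0.33 (95% interval -0.25 to 0.90), or 0.07 without both. Of the 7 leukocyte miRNAs tested, 2 were higher and 5 lower, with a median of -0.03, and 6 intervals lay within 2-fold. The myeloid miR-223 had 91.2, 70.2 and 98.7 against 80.3, 87.2 and 81.1, a difference of -0.05 (95% interval -0.58 to 0.48). The inflammation-induced miR-146a had 99.0, 107 and 101 against 116, 94.7 and 93.8, a difference of -0.02 (95% interval -0.51 to 0.48).

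Most neuronal and glial miRNAs were not detected in these muscles in either group. Of the 10 neuronal miRNAs on the array, 7 were detected on none of the 6 arrays, among them miR-124, miR-9 and the sensory-neuron pair miR-182 and miR-183, and only miR-128 and miR-212 were tested. miR-212, an activity-regulated miRNA, had 99.7, 106 and 150 in entrapment and 160, 124 and 157 after decompression, a difference of 0.33 (95% interval -0.27 to 0.92), or 0.21 without entrapment 1. Of the 5 glial and myelin miRNAs, 3 were detected on no array. miR-338, known from myelinating glia, was tested and had 115, 227 and 147 against 191, 193 and 154, a difference of 0.19 (95% interval -0.52 to 0.89). It was -0.04 without entrapment 1 and -0.09 without both arrays that stood apart. The set of markers that was present, myomiRs with some vascular, mesenchymal and blood miRNAs, is that of whole muscle, as the labels have it.

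Presence and absence of miRNAs also gave no switch between the groups. 0 miRNAs were detected on all 3 arrays of a group and on none of the other. Detection on all 3 entrapment arrays but on at most 2 decompression arrays occurred for 13 miRNAs, and the reverse for 2. Outside the tested set, 8 miRNAs were detected on 2 entrapment arrays and on no decompression array (miR-219-5p, miR-221, miR-322*, miR-335, miR-379, miR-503, miR-539 and miR-542-3p), and 0 the other way round. Scaled signals of these 8 were at most 15.2, and the detection calls did not always follow them. miR-219-5p, miR-221 and miR-539 had their highest signal on decompression 2, where they were not called detected. The rest had theirs on an entrapment array. The unscaled brightness moved with the detection counts, entrapment 1 and 2 being the brightest of the 6 arrays and those with the most miRNAs detected, and its part in them was not tested.

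**Figure D4:**
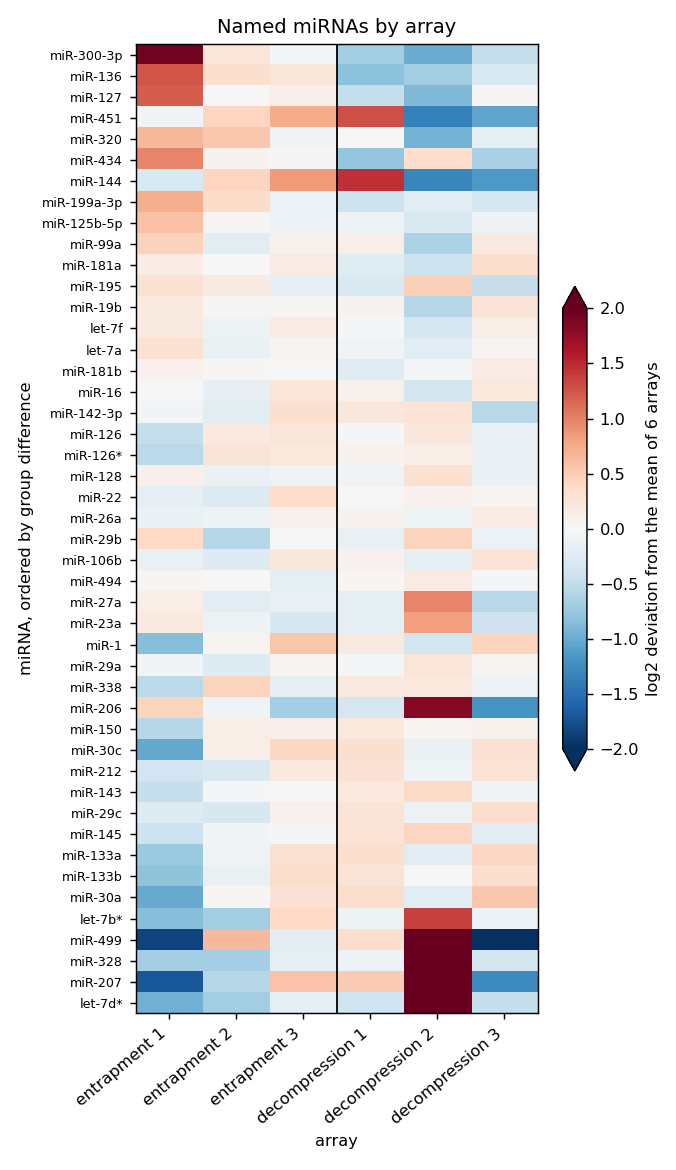
Log2 deviation of each named miRNA (rows, ordered by group difference) from its mean over the 6 arrays (columns, entrapment left of the line), with red for higher and blue for lower and the scale ending at 2 in either direction. The strongest colours stand in the columns of entrapment 1 and decompression 2, and few rows change colour at the line between the groups.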

How the data were processed

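Total RNA of each soleus was labelled with Cy3 and hybridised to an Agilent rat miRNA array in 1 colour. The labels describe linear amplification with Cy3-CTP and the methods ligation of pCp-Cy3, and which was used is unsettled here. The authors extracted the images with Agilent Feature Extraction 9.5.3, and the deposited intensity of a miRNA is its background-subtracted total gene signal, not normalised between arrays, with an error and a detection call. The authors' processed intensity values (soleus columns of the series table) were used only as an alternative, and 10 columns of other samples were not used. The methods name a rank-consistency LOWESS, whose settings are not given in the sources used here.

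Each array's signals were multiplied to bring their 75th percentile, taken among the 121 miRNAs with a detection call on every array, to 1000. A floor of 2.95 (the median over arrays of the lowest scaled signal called detected) was set and log2 taken. miRNAs detected on at least 3 of 6 arrays were tested with limma 3.58.1 in R 4.3.3 (lmFit and eBayes, no covariate, Benjamini-Hochberg), after a test on simulated data. Intervals are 95%. Whether replicates are separate rats is taken from the methods, which name 3 rats in each group. Correlations of same-numbered deviations were -0.22, 0.18 and 0.16. Without differently numbered pairs to set beside them, these cannot show whether equal replicate numbers share a batch. Slide and scan were not given in the files used, so neither could be tested as a batch. With 3 arrays a group, the number of arrays limits the precision.

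Named miRNAs were those at an unadjusted p under 0.05, the 10 largest differences, those detected on all arrays of 1 group and none of the other, the 10 highest mean signals, the muscle list and the 2 brightest members (or those called) of each other list, 46 in all. Others named, among them miR-101a, miR-378*, miR-425, miR-127 and miR-199a-5p, were chosen after their values were seen or as their partners. The miRNAs and lists were chosen with earlier results of these data known. Alternatives covered scaling, filter, floor, source of values, arrays in the fit, variance model, pairing and each array left out.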

Additional observations from a re-analysis of the deposited data

How the results depend on the processing

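In every setting run, 0 miRNAs passed limma's adjusted threshold, while at an unadjusted p under 0.05 between 0 and 5 were higher and between 2 and 6 lower. The smallest adjusted p of any setting was 0.348, without scaling, where the median difference was -0.21 in place of 0.07. The count of 2 miRNAs past the 2-fold rule without overlap was 1 without scaling and 6 without the filter on low values. Among miRNAs detected on all 6 arrays it was 1. It was 0 without both arrays that stood apart, and 0 to 7 with each array left out in turn. Fewer arrays make the no-overlap condition easier to meet. The count of 83 intervals within 2-fold was 0 without scaling, 231 without the filter (which adds undetected miRNAs held at the floor), 128 without both arrays that stood apart, and 48 to 95 with each array left out, lowest without decompression 1 (48), entrapment 2 (49) and entrapment 3 (51). With the replicate block there were 0 limma calls, 2 lower at an unadjusted p, and 79 intervals within 2-fold. Whether equal replicate numbers share a batch is not known. Of the 46 named miRNAs, 25 changed sign in at least 1 setting and 21 in none. Differences that turned by more than their error were, under quantile scaling, miR-22 (-0.27) and miR-29a (-0.16), and, without both arrays that stood apart, a setting chosen after seeing the data, miR-126 (-0.30), miR-126* (-0.27), miR-206 (-0.38), miR-207 (-0.39), miR-499 (-1.25) and miR-99a (0.22). With each array left out in turn, miR-126* ran from -0.21 to 0.19, miR-206 from -0.65 to 0.86 and miR-27a from -0.30 to 0.47. The cause was not tested. At a mean scaled signal under 100, 34 of 80 intervals lay within 2-fold, against 49 of 70 at 100 or more.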
